A study of Drosophila melanogaster with 30 samples.

Results

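Sex differences in RNA of adult whole bodies were measured in control flies of Drosophila melanogaster, with 2 libraries of XX females and 2 of XY males. These 4 libraries are all those whose labels give whole body as the tissue and a control genotype, XX or XY, out of 30 libraries in 15 groups. The labels write each genotype with a caret between its first letters and do not explain it; a caret often stands for attached chromosomes, and it is left out here. The series was built to ask what an added Y chromosome, named Yohio or Ycongo, changes in each tissue and sex, and the control bodies are its baseline in both sexes.

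The following groups were set beside each other, each of 2 libraries. They were XX female bodies, XY male bodies, female bodies with an added Y (XX/Yohio and XX/Ycongo, called XXYohio and XXYcongo), male bodies with an added Y (XY/Yohio and XY/Ycongo, called XYYohio and XYYcongo), ovaries of XX females and testes of XY males. All adults were 2 days old by their label, were reared on 1 food and are named only by genotype, so that the strain, the number of flies per library and their mating status are not given. Because XX females and XY males differ in sex, sex chromosomes and any strain background that comes with them, these cannot be told apart.

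The somatic sex of a fly is set by the number of X chromosomes, which switches on Sex-lethal in females and leads through transformer to sex-specific forms of doublesex and fruitless. Males raise the output of their single X through a complex of MSL proteins and the non-coding roX RNAs, and the Y chromosome carries few genes, nearly all needed for sperm. The largest sex-limited organs of the adult body are the ovary, with its nurse cells, oocytes and eggshell-forming follicle cells, and in males the testis, the accessory glands and the ejaculatory duct and bulb.

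Raw counts summed to 14013900 and 9004077 in XX female bodies, against 6026258 and 9267123 in XY male bodies. Values are CPM, a gene's counts relative to the library total after correction by the trimmed mean of M-values (TMM). A gene with 0 counts could hold up to 3 counts, which is 0.236 and 0.275 CPM in females, against 0.371 and 0.283 CPM in males. Mitochondrially encoded genes took 25.17% and 9.257% of counts in females, against 13.98% and 13.95% in males. Across 13318 genes, the log2 CPM correlated with Pearson r = 0.959 between both female libraries and 0.946 between both male libraries, and with r between 0.54 and 0.597 across the sexes. The same 4 libraries enter all these pairs, and genes are not independent replicates.

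A large share of the genes tested differed between the sexes, and male-biased genes were both more numerous and more nearly sex-limited. Of 13318 genes, 1661 were higher in XX females (12.5%) and 3020 were higher in XY males (22.7%), which makes 4681 in all (35.1%), by edgeR's quasi-likelihood test with a Benjamini-Hochberg adjusted p below 0.05. At an unadjusted p below 0.05, 43.7% passed. The count higher in females was 963 without female replicate 1, 947 without male replicate 1, 1010 without male replicate 2 and 1094 with plain library totals. The median log2 fold change, female over male, was 2.05 among the genes called higher in females and -6.94 among those called higher in males. A total of 1160 male-biased genes had 0 counts in both female libraries, while 44 female-biased genes had 0 counts in both male libraries. With such genes set to the limit that a count of 0 allows, these medians were 2.04 and -4.78.

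At that limit, 184 of the 1661 female-biased genes (11.1%) and 1821 of the 3020 male-biased genes (60.3%) differed by more than 16-fold. Genes called higher in females took 20.57% and 19.59% of the counts in females, against 4.657% and 4.817% in males. Genes called higher in males took 1.327% and 1.829% of the counts in females, against 21.27% and 17.11% in males. In whole bodies, fewer cells of a type and less RNA per cell cannot be told apart. The median over all genes tested was -0.11, and it moved to -0.28 with another scaling by relative log expression and to -0.33 with plain library totals, so differences of that size on the log2 scale depend on the scaling. With both female libraries above both male ones, the groups did not overlap for 29.7% of genes, and with both male libraries above for 37.5%. Among called genes they did not overlap for 1661 of 1661 higher in females and 3018 of 3020 higher in males. A lack of overlap named below for a called gene therefore adds almost nothing to its call.

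**Figure D1:**
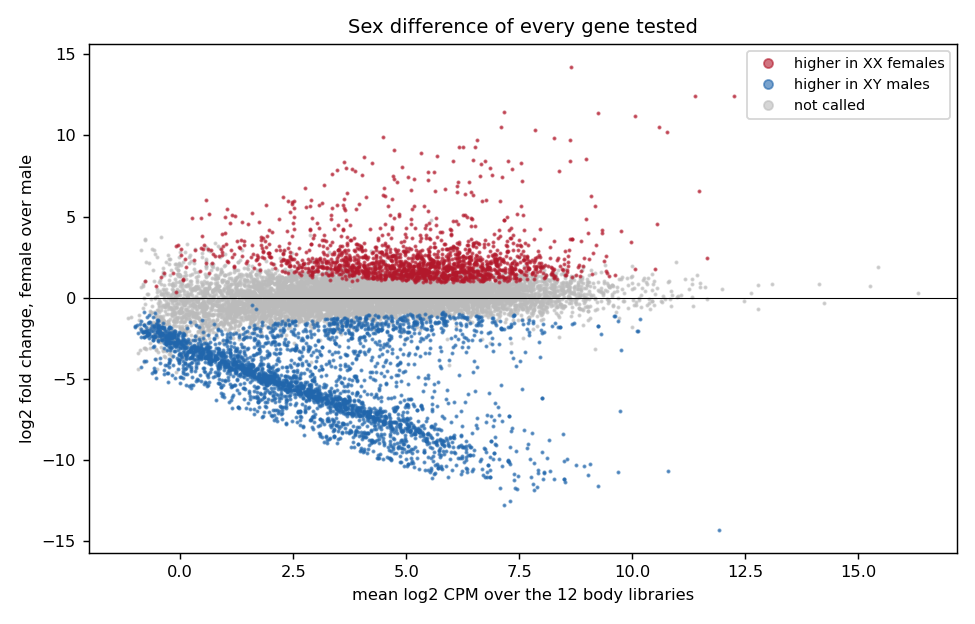
Log2 fold change, female over male, against mean log2 CPM over the 12 body libraries of the fit, 1 point per gene tested; genes with 0 counts in both libraries of a sex are drawn at the limit of 3 counts per library. The 3020 genes called higher in XY males reach far below the line, while most of the 1661 genes called higher in XX females lie within a few log2 units above it.

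Yolk and eggshell transcripts marked the female bodies. All 3 yolk protein genes and all 9 chorion genes were higher in XX females, as were 15 of the 16 other eggshell genes tested, where 12.5% of all genes were called in that direction. The medians were 11.21, 7.63 and 5.89 on the log2 scale with genes at 0 set to their limit, beside -0.11 over all genes. Yp1, which encodes a yolk protein made in fat body and follicle cells, had 7384 and 11372 CPM in XX females, against 2.23 and 1.13 CPM in XY males, a log2 fold change of 12.45 ± 0.91 (SE, adjusted p = 2.37e-06). Both female libraries lay far above both male libraries. Yp2 had 2522 and 2029.6 CPM in female bodies, against 1.48 and 0.472 CPM in male bodies (adjusted p = 3.10e-06). Yp3 had 2327 and 3261 CPM in female bodies, against 1.98 and 2.64 CPM in male bodies (adjusted p = 2.37e-06), and the sexes did not overlap for either gene.

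Yp1 lies on the X chromosome, at 10053811 to 10055498 in the BDGP6.54 annotation, and asRNA:CR45601, annotated within it on the opposite strand, had 3636 and 6028 CPM in XX females, against 0.989 and 0.754 CPM in XY males. As strand is not given for these counts, reads of this antisense gene and of Yp1 cannot be told apart. The receptor that takes yolk up into the oocyte, yl, had 1475 and 1082 CPM in XX females, against 0.247 and 0.66 CPM in XY males, with a log2 fold change of 11.37 ± 0.75 (SE, adjusted p = 2.37e-06). Its female and male libraries did not come near each other.

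Of the chorion genes, which build the outer eggshell and are amplified in follicle cells late in oogenesis, Cp36 had 434 and 435 CPM in XX females, against 0.989 and 0 CPM in XY males (adjusted p = 4.11e-05). Cp15, from the late cluster on the left arm of chromosome 3, had 299 and 511 CPM in female bodies, against 0.989 and 1.32 CPM in male bodies (adjusted p = 5.27e-05). Cp19 had 40.6 and 26.98 CPM in XX females, against 0 and 0 CPM in XY males, so it was at least 103-fold higher in females. The female libraries lay above the male libraries for each of the 9 chorion genes, and the males held at most single counts of several of them. Of the other eggshell genes, fs(1)M3, whose product sits in the vitelline membrane, had 635 and 461 CPM in female bodies, against 2.23 and 2.55 CPM in male bodies (adjusted p = 2.33e-05), and Vm26Aa, a vitelline membrane protein, had 128 and 92.5 CPM in female bodies, against 0.371 and 0 CPM in male bodies. The eggshell gene fs(1)N was less sex-limited, with 223 and 238 CPM in XX females, against 15.6 and 15.7 CPM in XY males and a log2 fold change of 3.88 ± 0.53 (SE).

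**Figure D2:**
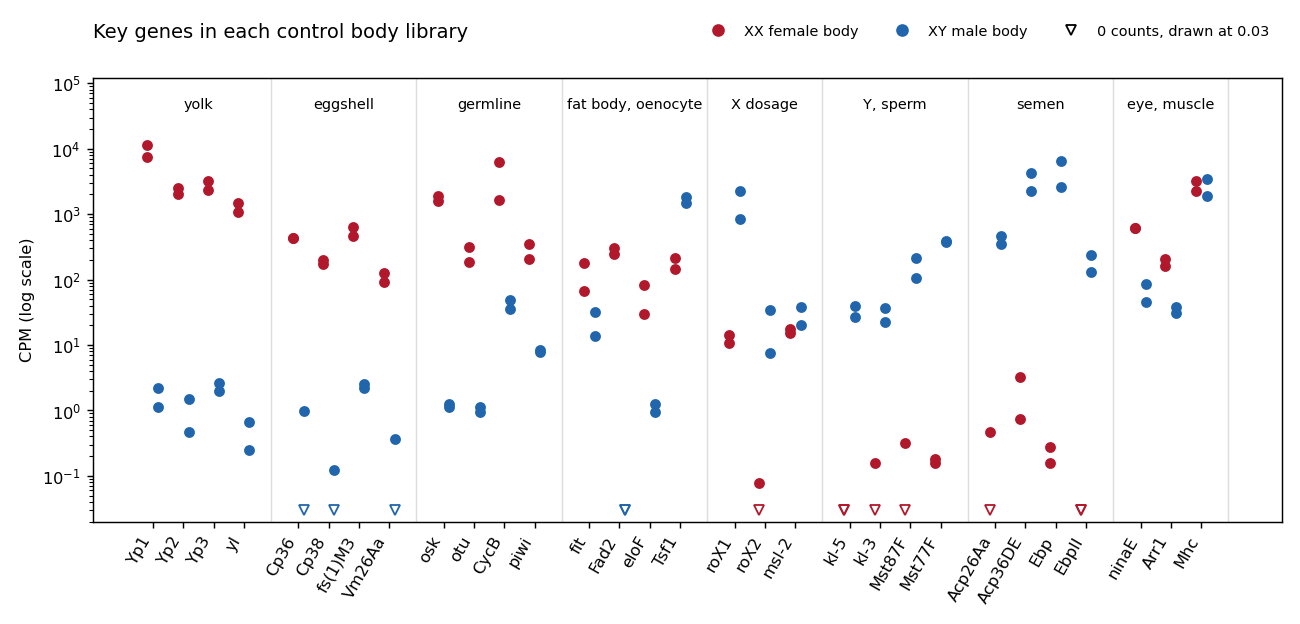
CPM on a log axis of 30 genes, grouped by role, in each of the 2 XX female bodies (red, left of each pair) and 2 XY male bodies (blue); triangles at 0.03 stand for 0 counts. Yolk, eggshell and germline genes lie high in females, roX, Y-linked, sperm and semen genes lie high in males, and the sexes overlap for the muscle myosin gene Mhc.

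Maternal and germline transcripts were also female-biased. Of 46 genes of the female germline list tested, 32 were higher in females and 3 in males, beside 12.5% and 22.7% of all genes. Their median log2 fold change was 3.25, beside -0.11 over all genes. The posterior determinant osk had 1909 and 1573 CPM in XX females, against 1.24 and 1.13 CPM in XY males, a log2 fold change of 10.51 ± 0.76 (SE, adjusted p = 2.37e-06). Translational regulators that load the egg were abundant in females without being absent from males. The RNA helicase gene me31B had 3651 and 1125 CPM in XX females, against 84.2 and 117 CPM in XY males (adjusted p = 0.000635). The gene smg, which encodes a regulator of maternal mRNA decay, had 1474 and 996 CPM in female bodies, against 58.2 and 84.3 CPM in male bodies (adjusted p = 3.48e-05). For both genes the lower female library was several times above the higher male library.

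The 3 exceptions, exu, ord and bgcn, act in the germline of both sexes, and the list names them for their work in the ovary. The bicoid mRNA localization gene exu, which also has a testis-specific transcript, had 167 and 192 CPM in XX females, against 696 and 993 CPM in XY males, a log2 fold change of -2.23 ± 0.50 (SE, adjusted p = 0.00348). Its male libraries lay above both female libraries, and its testis libraries above both ovary libraries, with 554 and 512 CPM in ovaries, against 4145 and 4830.3 CPM in testes. The cohesion gene ord had 0 and 0.0918 CPM in XX females, against 10.1 and 13.02 CPM in XY males, and bgcn, a partner of bag of marbles in cyst formation, had 0 and 0.367 CPM in XX females, against 25.4 and 17.5 CPM in XY males.

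Cell cycle and piRNA pathway genes followed the female direction without exception among the calls. Of 43 cell cycle genes tested, 33 were higher in females and 0 in males, with a median of 2.80. Of 28 piRNA pathway genes, 21 were higher in females and 0 in males, also with a median of 2.80. Over all genes, 12.5% were higher in females and 22.7% in males. The mitotic cyclin gene CycB had 6332 and 1645 CPM in XX females, against 48.6 and 36.1 CPM in XY males, a log2 fold change of 6.56 ± 0.84 (SE, adjusted p = 4.39e-05). The 2 female libraries differed from each other by more than the 2 male libraries did, but both lay far above them. The phosphatase gene stg, which triggers entry into mitosis, had 259 and 237 CPM in female bodies, against 1.73 and 1.698 CPM in male bodies, and RnrL, the large subunit of ribonucleotide reductase, had 239 and 171 CPM in female bodies, against 7.17 and 7.64 CPM in male bodies.

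Not every member was as stable: the kinase gene polo had 226 and 81.3 CPM in XX females, against 45.9 and 24.99 CPM in XY males and passed with an adjusted p of 0.00912, but its adjusted p was 0.139 without female replicate 1 and 0.0923 without male replicate 2. Among the Argonaute genes of the piRNA pathway, which silence transposons in the germline, piwi had 347 and 209 CPM in female bodies, against 8.41 and 7.73 CPM in male bodies (adjusted p = 6.00e-06). Likewise, aub had 157 and 89.1 CPM in female bodies, against 2.84 and 7.54 CPM in male bodies (adjusted p = 5.31e-05). AGO3 had 578 and 113 CPM in female bodies, against 17.8 and 19.1 CPM in male bodies (adjusted p = 0.00183), and the groups did not overlap for piwi, aub or AGO3.

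All 12 protein-coding Y genes were higher in XY males, where 22.7% of all genes were called in that direction, and 9 of them had 0 counts in both female libraries. RNA of Y genes in the males thus matches their label. Its near absence in XX females does not show that they lack a Y, as nearly all of these genes act in sperm. The list includes kl-2, kl-3 and kl-5, which encode dynein heavy chains of the sperm tail. Of these, kl-5 had 0 and 0 CPM in XX females, against 27.2 and 39.7 CPM in XY males, so it was at least 131-fold higher in males, and kl-3 had 0.158 and 0 CPM in XX females, against 22.1 and 37.3 CPM in XY males (adjusted p = 8.24e-06). Summed over the 11 genes other than FDY, the level was 0.315 and 0 CPM in females, against 136 and 164 CPM in males.

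FDY, a copy of the autosomal gene vig2, had 0.236 and 0.459 CPM in XX females, against 5.32 and 1.79 CPM in XY males (adjusted p = 0.00236). It was the only 1 of the 12 with counts in both female libraries, at values near the limits of a count of 0. Counts of the 34 annotated Su(Ste) copies on the Y, which are too alike for single counts to be certain, summed to 0 and 0 counts in females, against 40 and 99 counts in males. Pp1-Y1, a phosphatase gene with few counts, had 0 and 0 CPM in female bodies, against 2.97 and 1.98 CPM in male bodies (adjusted p = 0.00917).

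Sperm genes outside the protein-coding Y list were male-biased as well. Of the genes tested, 36 of 37 sperm tail and axoneme genes, 7 of 7 sperm chromatin genes and 14 of 19 spermatocyte regulators were higher in males, beside 22.7% of all genes. Their medians were -8.38, -8.01 and -3.86 on the log2 scale with genes at 0 set to their limit. The sperm leucyl aminopeptidase gene S-Lap7, one of the abundant proteins of the sperm tail, had 0.867 and 0.184 CPM in XX females, against 1209.7 and 938 CPM in XY males, a log2 fold change of -10.93 ± 1.28 (SE, adjusted p = 2.16e-05). Its male libraries lay far above the female libraries. Mst77F, a protein that packs sperm DNA, had 0.158 and 0.184 CPM in female bodies, against 388 and 374 CPM in male bodies, and Tpl94D, a transition protein that precedes it, had 0 and 0 CPM in female bodies, against 125 and 78.3 CPM in male bodies, at least 398-fold higher in males.

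The spermatocyte list was less uniform. The testis-specific transcription factor subunit gene can had 0 and 0 CPM in XX females, against 13.97 and 18.96 CPM in XY males, at least 64.4-fold higher in males, and the RNA-binding protein gene Rbp4 had 0.946 and 1.28 CPM in XX females, against 15.6 and 25.9 CPM in XY males (adjusted p = 0.000349). The 1 member called in the other direction was twe, the Cdc25 phosphatase of meiosis in both sexes, with 119.8 and 33.3 CPM in female bodies, against 27.3 and 20.2 CPM in male bodies (adjusted p = 0.0413). That call was lost without female replicate 1 (adjusted p = 0.598), male replicate 1 (0.103) or male replicate 2 (0.193), and with scaling by relative log expression (0.0661).

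Seminal fluid genes were higher in males for 59 of 62 accessory gland genes and 8 of 9 genes of the ejaculatory duct and bulb, beside 22.7% of all genes. The accessory gland list summed to 90.8 and 128 CPM in females, against 6481 and 10808 CPM in males. Acp36DE, a glycoprotein that sperm storage in the mated female depends on, had 3.23 and 0.734 CPM in XX females, against 2244 and 4282 CPM in XY males, a log2 fold change of -10.66 ± 1.17 (SE, adjusted p = 1.41e-05). Acp26Aa, or ovulin, which stimulates ovulation, had 0.473 and 0 CPM in female bodies, against 348 and 462 CPM in male bodies. Sfp87B, a seminal fluid protein gene, had 0 and 0 CPM in female bodies, against 299.5 and 609.5 CPM in male bodies, at least 1777-fold higher in males.

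The sex peptide gene SP, best known for changing the behaviour of mated females, had only 0.0788 and 0 CPM in XX females, against 0.371 and 1.51 CPM in XY males. Ebp, which encodes a protein of the ejaculatory bulb and the mating plug, had 0.158 and 0.275 CPM in XX females, against 2628 and 6531 CPM in XY males, a log2 fold change of -14.30 ± 1.07 (SE, adjusted p = 2.37e-06). EbpII had 0 and 0 CPM in XX females, against 234 and 129.6 CPM in XY males, at least 711-fold higher in males. EbpIII and the esterase gene Est-6 were present in both sexes. EbpIII had 86.9 and 176 CPM in XX females, against 443 and 379 CPM in XY males, with an adjusted p of 0.00989, which was 0.111 without female replicate 1 and 0.0621 without male replicate 1. Est-6 had 146 and 151 CPM in XX females, against 319 and 569.6 CPM in XY males, with an adjusted p of 0.00939, which was 0.0645 without female replicate 1 and 0.106 without male replicate 2.

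The roX RNAs of the dosage compensation complex were the male-biased members of their list. roX1 (lncRNA:roX1, on X at 3857230 to 3862697, BDGP6.54) had 10.6 and 14.4 CPM in XX females, against 844 and 2275 CPM in XY males, a log2 fold change of -6.96 ± 0.85 (SE, adjusted p = 2.99e-05). roX2 (lncRNA:roX2) had 0.0788 and 0 CPM in XX females, against 7.67 and 33.9 CPM in XY males (adjusted p = 0.000578). Both genes separated the sexes completely, and roX2 differed several-fold between the male libraries.

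Of the protein members, msl-1 was higher in females, with 195 and 83.8 CPM in XX females, against 23.9 and 26.03 CPM in XY males, a log2 fold change of 2.48 ± 0.44 (SE, adjusted p = 0.000613). Its ovary libraries lay above its testis libraries as well, with 312 and 241 CPM in ovaries, against 19.9 and 29.5 CPM in testes. The male-specific protein of the complex is MSL-2, whose translation Sex-lethal blocks in females; its gene msl-2 had 15.4 and 17.7 CPM in female bodies, against 20.04 and 37.7 CPM in male bodies and did not pass (adjusted p = 0.186), although both male libraries lay above both female libraries. The other 4 protein genes, msl-3, mof, mle and Clamp, had log2 fold changes between -0.16 and 0.60 and adjusted p-values of at least 0.324.

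Most sex determination genes were not called for their total level, and counts per gene do not show the sex-specific splice forms on which this pathway runs. Of 15 tested, 4 were higher in females (Sxl, fl(2)d, snf and nito) and 0 in males, beside 12.5% of all genes higher in females. Their median log2 fold change was 0.57, but it was -0.04 without female replicate 1 and 0.30 with plain library totals. Sxl, the switch gene itself (on X at 7074550 to 7098053, BDGP6.54), had 364 and 241 CPM in XX females, against 73.7 and 121 CPM in XY males, a log2 fold change of 1.63 ± 0.48 (SE, adjusted p = 0.0182). nito, an RNA-binding protein of the complex that methylates RNA and aids Sxl splicing, had 239 and 199.8 CPM in female bodies, against 34.3 and 67.2 CPM in male bodies, with 2.11 ± 0.44 (adjusted p = 0.00217). The groups did not overlap for either gene.

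The call of nito held without any 1 of the 4 libraries. That of Sxl was lost without female replicate 1 (adjusted p = 0.116) or male replicate 1 (0.136), and those of fl(2)d and snf, also splicing regulators of this pathway, were lost without each of the 4 libraries in turn (0.0705 to 0.118 for fl(2)d and 0.0584 to 0.15 for snf) and with plain library totals (0.132 for fl(2)d and 0.124 for snf). The downstream genes tra, dsx and fru had log2 fold changes of -0.10 ± 0.98, -0.76 ± 0.55 and -0.02 ± 0.57 (SE), with adjusted p-values of 0.953, 0.319 and 0.981. The sexes overlapped for tra, dsx and fru.

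Among the genes known as targets of the somatic hierarchy, 3 of 13 were higher in females (Fad2, eloF and fit) and 4 in males (Cyp4d21, sxe2, bond and Mal-A4), beside 12.5% and 22.7% of all genes, and without female replicate 2 or male replicate 2 the count in males was 2. Enzymes of female pheromone synthesis were nearly limited to females. Fad2, the desaturase that makes female-specific dienes in oenocytes, had 300.0 and 244 CPM in XX females, against 0 and 0 CPM in XY males, at least 832-fold higher in females. eloF, an elongase of the same pathway, had 29.7 and 82.2 CPM in female bodies, against 1.24 and 0.943 CPM in male bodies, a log2 fold change of 5.68 ± 0.83 (SE, adjusted p = 0.000136). The male libraries of both genes lay at or near 0.

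Cyp4d21, a cytochrome P450 of the male head, had 36.2 and 36.1 CPM in XX females, against 155 and 364 CPM in XY males, with -2.84 ± 0.45 (adjusted p = 0.00026). fit, a fat body gene expressed mainly in females, had 179 and 68.1 CPM in XX females, against 13.6 and 32.3 CPM in XY males (adjusted p = 0.00718), and its call was lost without female replicate 1 (adjusted p = 0.0884) or male replicate 1 (0.074). The elongase gene bond had 60.8 and 49.00 CPM in female bodies, against 109 and 137 CPM in male bodies (adjusted p = 0.0419), and without any 1 of the 4 libraries its adjusted p lay between 0.0689 and 0.181. The maltase gene Mal-A4 had 23.8 and 17.2 CPM in female bodies, against 54.8 and 68.00 CPM in male bodies (adjusted p = 0.00778), and its adjusted p was 0.0556 without female replicate 2 and 0.0534 without male replicate 2. Outside these targets, Send1, a protease gene of the spermatheca, had 45.6 and 72.6 CPM in female bodies, against 0 and 0 CPM in male bodies, at least 181-fold higher in females. It was the only 1 called of 3 listed spermathecal genes, of which 2 were tested. The other tested gene had a log2 fold change of 0.64.

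Organs that both sexes have did not all move alike. No muscle gene (0 of 25) and no neuronal gene (0 of 18) was called, beside 35.1% of all genes. Their medians were 0.09 and -0.21, beside -0.11 over all genes. Both medians changed sign with the settings: over the alternatives, that of muscle lay between -0.12 and 0.37, and that of neuronal genes between -0.56 and 0.12. At an unadjusted p below 0.05, 1 muscle and 1 neuronal gene passed by edgeR, and DESeq2 called 1 of each at its adjusted p. The muscle list summed to 19889 and 21492 CPM in females, against 14221 and 23638 CPM in males, and the sexes overlapped. Of 19 fat body genes, 1 was called. It was the iron-binding transferrin gene Tsf1, with 211 and 143 CPM in female bodies, against 1856 and 1476 CPM in male bodies, a log2 fold change of -3.24 ± 0.56 (SE, adjusted p = 0.000545).

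Photoreceptor genes were higher in females for 15 of 30 tested and in males for 0, beside 12.5% and 22.7% of all genes. Their median was 1.68. ninaE, the major rhodopsin, had 609 and 617 CPM in XX females, against 45.5 and 84.2 CPM in XY males, a log2 fold change of 3.24 ± 0.47 (SE, adjusted p = 0.000115). The arrestin gene Arr1 had 159 and 208 CPM in female bodies, against 30.4 and 38.5 CPM in male bodies (adjusted p = 0.000167), and the photoreceptor myosin gene ninaC had 179 and 220.0 CPM in female bodies, against 37.1 and 52.1 CPM in male bodies (adjusted p = 0.000341). The libraries of the sexes were well apart for ninaE, Arr1 and ninaC, and these calls held without any 1 of the 4 libraries. The count of 15 fell to 9 without female replicate 2 or male replicate 1; the adhesion gene chp, for instance, had an adjusted p of 0.0141, which was 0.0728 without female replicate 2 and 0.122 without male replicate 1.

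Digestive genes were higher in females for 19 of 37 and in males for 2, beside 12.5% and 22.7% of all genes. Their median was 1.97, and it was 0.84 without female replicate 2. The gut protease gene Jon25Bii had 328 and 286 CPM in XX females, against 18.8 and 63.2 CPM in XY males, a log2 fold change of 2.90 ± 0.65 (SE, adjusted p = 0.00337). The 2 male-biased members were maltase genes. Mal-A7 had 145 and 108 CPM in XX females, against 326 and 413 CPM in XY males. Mal-A8 had 62.6 and 66.9 CPM in XX females, against 197 and 219.9 CPM in XY males. Both calls were lost when single libraries were left out: the adjusted p of Mal-A7, 0.0262, lay between 0.0555 and 0.117 without any 1 of the 4, and that of Mal-A8, 0.0122, was 0.0748 without female replicate 1 and 0.0533 without male replicate 2. The count of 19 was 7 without female replicate 2, 8 without male replicate 1 and 12 without male replicate 2.

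Immune effector genes were higher in males for 15 of 29 tested and in females for 0, beside 22.7% and 12.5% of all genes. Their median was -2.77. The antibacterial peptide gene DptA had 19.8 and 2.11 CPM in XX females, against 887 and 192 CPM in XY males, a log2 fold change of -5.62 ± 1.26 (SE, adjusted p = 0.0034). The peptidoglycan recognition gene PGRP-SB1 had 39.6 and 15.1 CPM in XX females, against 392 and 293 CPM in XY males (adjusted p = 0.000158). PGRP-SD, of the same family, had 4.25 and 4.86 CPM in XX females, against 86.1 and 68.4 CPM in XY males (adjusted p = 9.51e-05). Male libraries lay above female libraries for all 3 genes, and DptA also differed several-fold within each sex. The list summed to 689.8 and 326 CPM in females, against 6071 and 2443 CPM in males, without overlap. The count of 15 was 10 without male replicate 1, 23 with the 4 control libraries alone, 21 without a filter on low counts and 20 by DESeq2. PPO2, the phenoloxidase of crystal cells, was the only called gene of 14 hemocyte genes, with 40.3 and 32.03 CPM in female bodies, against 9.28 and 11.3 CPM in male bodies (adjusted p = 0.0152). Its call was lost without female replicate 1 (0.0695), male replicate 1 (0.111) or male replicate 2 (0.0614).

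**Figure D3:**
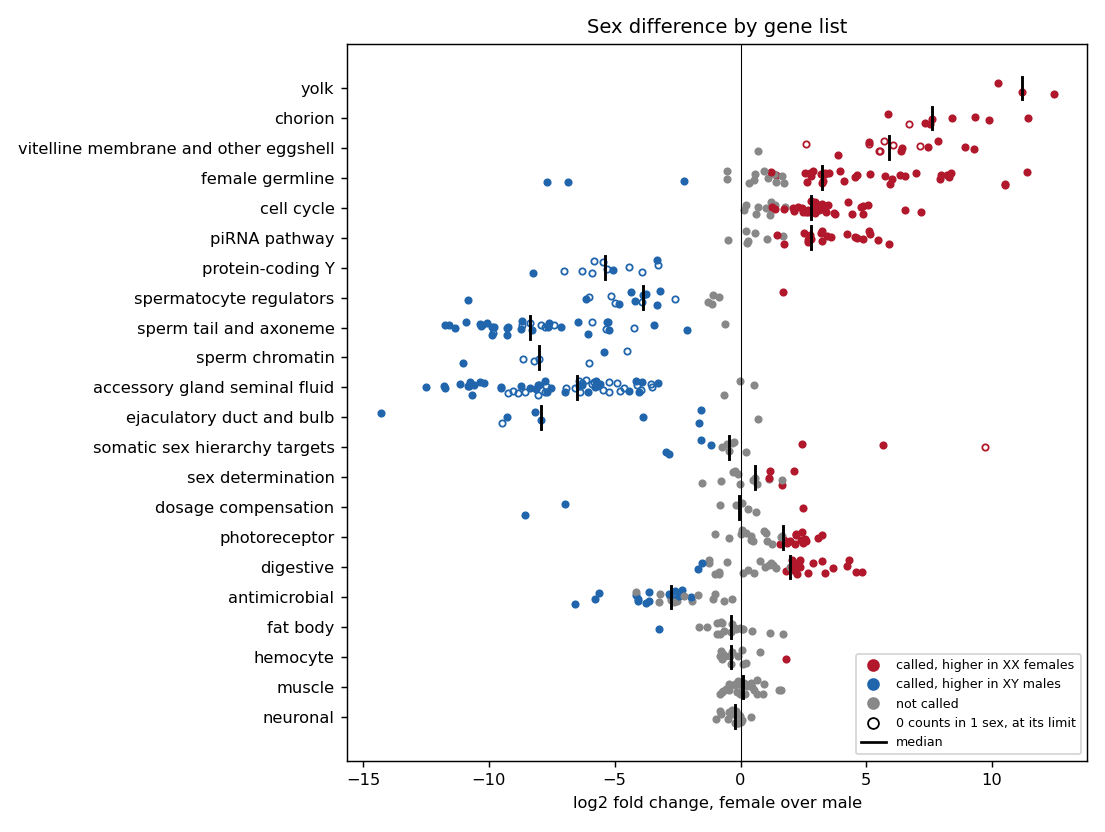
Log2 fold change, female over male, of every tested gene of the lists, 1 point per gene coloured by its call, with the list's median as a bar; open points had 0 counts in 1 sex and lie at the limit of 3 counts per library. Yolk, eggshell, germline, cell cycle and piRNA lists lie to the right, Y, sperm and semen lists to the left, and muscle and neuronal genes around 0.

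Beyond the lists, the genes with the largest changes were mostly without a name. In females, CG42704 had 2016 and 504 CPM in XX females, against 0 and 0.0943 CPM in XY males (adjusted p = 1.63e-05). CG43090 had 221 and 193 CPM in XX females, against 0 and 0 CPM in XY males, which is at least 633-fold higher in females. Both lie on the X chromosome and were near or at 0 in the gonads: CG42704 had 0 and 0 CPM in ovaries, against 0 and 0.884 CPM in testes, and CG43090 had 0.536 and 0.15 CPM in ovaries, against 0 and 0 CPM in testes. In males, CG12860 had 0 and 0 CPM in female bodies, against 353 and 316 CPM in male bodies, at least 1308-fold higher in males. CG18449 had 0 and 0 CPM in female bodies, against 255 and 273 CPM in male bodies, at least 1031-fold higher in males. The pairs CG42634 and CG42635, and CG43731 and CG17344, were also among these 10 male-biased genes, but each pair had identical counts and so cannot be counted as 2 genes.

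Abundant genes outside the lists included Bace, an aspartic protease gene, with 2259.9 and 2483 CPM in XX females, against 98.7 and 332 CPM in XY males, a log2 fold change of 3.46 ± 0.65 (SE, adjusted p = 0.000924), and CG17097, with 1.42 and 0.459 CPM in XX females, against 1211 and 2059.6 CPM in XY males (adjusted p = 3.11e-06). Alcohol dehydrogenase, Adh, had 329 and 439.6 CPM in female bodies, against 1479 and 1775 CPM in male bodies (adjusted p = 0.00787, and 0.0732 without female replicate 1), and it shares its coordinates and nearly all of its counts with Adhr. The translation and turnover genes RpL4, a ribosomal protein, and Ubi-p63E, a polyubiquitin gene, changed less. RpL4 had 2815 and 2289 CPM in XX females, against 562 and 967 CPM in XY males (adjusted p = 0.0241, 0.0959 without female replicate 1 and 0.153 without male replicate 1). Ubi-p63E had 576 and 737 CPM in female bodies, against 1842 and 1484 CPM in male bodies (adjusted p = 0.0288, and 0.0508 to 0.177 without any 1 of the 4).

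Control ovaries and testes show which of these genes also differ between the gonads. The gonad labels fit these markers: chorion genes summed to 3059 and 4871 CPM in ovaries, against 4.34 and 6.41 CPM in testes, and sperm chromatin genes to 0.536 and 0.299 CPM in ovaries, against 4756 and 3504 CPM in testes. Accessory gland genes summed to 65817 and 54708 CPM in the same testis libraries, so a call in testes need not come from the testis itself. Bodies and gonads were scaled and fitted separately, and of 13130 genes tested in gonads 3412 were higher in ovaries (26.0%) and 6236 were higher in testes (47.5%), or 73.5% together, by the same test. Of the 1661 genes higher in female bodies, 1372 were higher in ovaries, which is 82.6% of them and 40.2% of the ovary-biased genes. Of the 3020 genes higher in male bodies, 2851 were higher in testes, which is 94.4% of them and 45.7% of the testis-biased genes. Only 30 female-biased body genes were higher in testes, and only 14 male-biased body genes were higher in ovaries.

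Some sex-biased body genes were low in both gonads, with a mean below 1 CPM in ovaries and in testes. The share of all genes tested that was so low was not counted. Of the genes called, these were 78 of the 1661 female-biased (4.7%) and 97 of the 3020 male-biased ones (3.2%). In females they included retinin, a gene of the corneal lens, with 87.7 and 261 CPM in XX females, against 10.9 and 29.99 CPM in XY males (adjusted p = 0.00195), and the gut protease gene yip7, with 368 and 389.8 CPM in XX females, against 101 and 76.7 CPM in XY males (adjusted p = 0.00183). CG32834 had 95.3 and 304 CPM in female bodies, against 0.495 and 0.566 CPM in male bodies (adjusted p = 2.75e-05). In males, CG34040 had 8.904 and 3.95 CPM in female bodies, against 51.4 and 41.9 CPM in male bodies (adjusted p = 0.000929), and the cytochrome P450 gene Cyp309a1 had 8.75 and 8.08 CPM in female bodies, against 47.5 and 23.9 CPM in male bodies (adjusted p = 0.00271). The groups did not overlap for any of these genes.

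The testis libraries also held high levels of accessory gland transcripts, of which 55 of 62 were higher in testes than in ovaries. The accessory gland list summed to 23.1 and 20.5 CPM in ovaries, against 65817 and 54708 CPM in testes, above the male bodies themselves. Acp36DE, for instance, had 0.804 and 1.496 CPM in ovaries, against 28421 and 32926 CPM in testes. Of the 9 ejaculatory duct and bulb genes, 7 were higher in testes, and the list summed to 3.75 and 12.6 CPM in ovaries, against 5893 and 6324 CPM in testes. The duct esterase gene Est-6 had 1.34 and 2.99 CPM in ovaries, against 2560.5 and 3203 CPM in testes. The bulb gene EbpIII had 0.447 and 1.12 CPM in ovaries, against 23.8 and 20.01 CPM in testes. The other two genes, Ebp and EbpII, were not called between the gonads. Ebp had 0.447 and 6.58 CPM in ovaries, against 2.89 and 1.66 CPM in testes, and EbpII had 0.0894 and 0.15 CPM in ovaries, against 0 and 0.111 CPM in testes. How many of the 2851 genes are transcripts of the accessory gland or the ejaculatory duct and not of the testis was not tested.

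**Figure D4:**
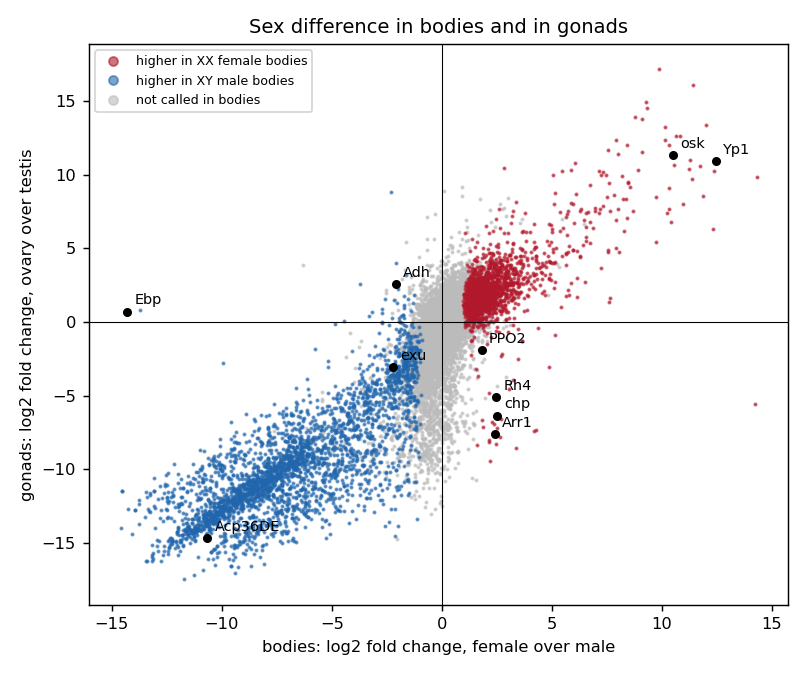
Log2 fold change of control gonads, ovary over testis, against that of control bodies, female over male, 1 point per gene tested in both, coloured by the call in bodies. Most called genes lie at the upper right and lower left; Arr1, chp, Rh4 and PPO2 lie at the lower right, Adh at the upper left, and Ebp far to the left with a gonad value near 0.

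The chromosomes differed in their balance of sex-biased genes. On the X, 364 of 2062 genes were higher in females (17.7%) and 350 in males (17.0%), while on the arms of chromosomes 2 and 3, 1262 of 10929 genes were higher in females (11.5%) and 2615 in males (23.9%). The median log2 fold change was 0.23 on the X and -0.17 on chromosomes 2 and 3, so X genes stood 0.398 higher, without a test. In the 4 pairs of 1 female and 1 male library, this difference lay between 0.332 and 0.422. Of the 92 genes of chromosome 4, 6 were higher in females and 4 in males, and of 30 tested on the Y, 23 were higher in males and 0 in females. Among genes with a lower level in each gonad than in its body, the median was -0.09 for 603 genes on the X and -0.31 for 3092 on chromosomes 2 and 3. These genes were picked with the same body values, and bodies and gonads were scaled separately. Their medians therefore do not show the X difference with the gonads removed.

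**Figure D5:**
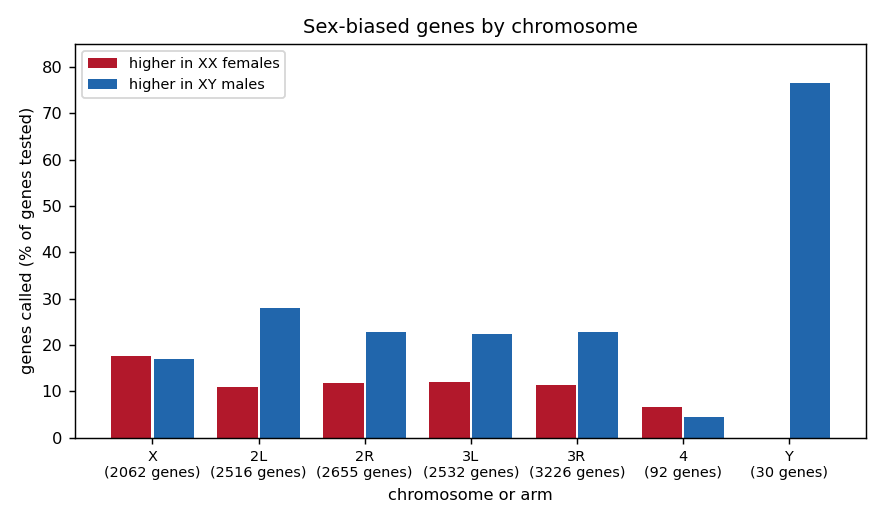
Genes called higher in XX female bodies (red, left) and in XY male bodies (blue, right), as a percentage of the genes tested on each chromosome or arm. The X holds about equal shares of both, 17.7% and 17.0%, each large autosomal arm more male-biased than female-biased genes, and the Y only male-biased ones.

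Bodies with an added Y allow a test of whether the sex difference of the controls is larger or smaller than that of flies with 1 more Y. The difference, female over male, of the controls was set against the mean of that of Yohio and Ycongo flies in the same fit of 12 libraries. For some genes with 0 counts in both control libraries of 1 sex, the fit could not estimate this contrast, so they could not pass. Its SE was 1002 for Cp19, 625 for Send1 and 3037 for kl-5. No gene passed: 0 of 13318 had an adjusted p below 0.05 by edgeR or by DESeq2, while 756 had an unadjusted p below 0.05 (5.68%). Yp1, for instance, differed by -0.03 ± 0.75 (SE, adjusted p = 1), with 9127 and 15514 CPM in XXYohio females, against 1.68 and 1.67 CPM in XYYohio males.

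Many lists leaned in 1 direction in this comparison, without any member passing the adjusted test. The genes of a list come from the same libraries and are not independent replicates. All 25 muscle genes lay above 0, with a median difference of 1.27 and 10 unadjusted p-values below 0.05, and all 37 digestive genes, with a median of 1.07 and 7 such p-values. Of 30 photoreceptor genes 26 lay above 0, with a median of 1.02. So did 16 of 18 neuronal, 16 of 19 fat body, 11 of 14 hemocyte and 21 of 29 immune effector genes. The same held for 11 of 13 targets of the somatic hierarchy and 8 of 9 ejaculatory duct and bulb genes. Over all 13318 genes the median was 0.0026, with 6673 above 0. In the other direction, 0 of 9 chorion genes lay above 0, with a median of -1.95, and 2 of 43 cell cycle genes, with a median of -0.82. Likewise, only 8 of 46 female germline genes and 7 of 28 piRNA pathway genes lay above 0. Sperm tail and axoneme genes were near even, with 19 of 37 above 0. The rhodopsin gene ninaE was highest in XX females, with 609 and 617 CPM. XXYohio females had 171 and 258 CPM, and XXYcongo females had 271 and 234 CPM. In XY males it had 45.5 and 84.2 CPM, in XYYohio males 72.1 and 52.2 CPM and in XYYcongo males 47.1 and 31.2 CPM, and the test of the difference gave 1.00 ± 0.53 (SE, adjusted p = 0.814).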

How the data were processed

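Each deposited file holds raw counts of reads per gene for 1 library, without normalization, which the authors made. Tools named in the submitters' processing notes are DESeq2 1.8.1, R 3.2.3, Bowtie2, SAMtools and Trim Galore. Genome build, counting method and strandedness: not given in the sources used here. The labels call the replicates biological without naming separate flies, so a p-value reflects only how libraries of a group differ, and intervals or limits of a count of 0 cover counting error only. Places and symbols came from Ensembl's BDGP6.54 annotation, which matched 16649 of 16868 gene IDs. Libraries of the same sex differed by more than sampling noise, and 105 sets of genes had identical counts.

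An edgeR 4.0.16 model in R 4.3.3 took in all 12 body libraries in 6 groups, with 6 residual degrees of freedom, after filterByExpr at a minimum count of 10 and TMM scaling; the 12 gonad libraries were fitted likewise. Quasi-likelihood p-values had Benjamini-Hochberg adjustment over all genes of a comparison, and an adjusted p below 0.05 was called. The biological coefficient of variation was 0.393 in bodies. Each SE was the absolute log2 fold change divided by the square root of the F value of its test. It is approximate, above all for genes at or near 0 counts. The steps were tested on simulated data, in which a small share of well-counted genes changed equally often in each direction. That setting did not cover genes at 0 counts in 1 sex, or more changes towards 1 sex than the other. An exact two-sided permutation test of 2 against 2 libraries cannot go below 0.333, so none was made. Folds against a sex with 0 counts were taken against the mean of both libraries' limits of 3 counts. Alternatives were RLE scaling, library totals, no filter, DESeq2 1.42.0, a test against a 2-fold change, the 4 control libraries alone, no mitochondrial genes, a replicate block, and leaving out each library. CNS libraries and the authors' tables of comparisons were not used here.

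The comparison, the gene lists and the naming rule were chosen with earlier results of these data known. The rule named all yolk, chorion, dosage compensation, sex determination and protein-coding Y genes, up to 6 called members of other lists by mean CPM, and outside the lists up to 10 per direction by change, by CPM and by CPM among genes low in both gonads. Genes named outside it (Mhc, SP, ord, bgcn, Pfas, Gart, Paics, Shmt and the lysozyme genes, the sums over repeats, and sxe2 as part of a count) were chosen after their values were seen.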

Additional observations from a re-analysis of the deposited data

Results flagged for a closer look

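Genes called in both tissues but in opposite directions were 30 higher in female bodies and in testes, and 14 higher in male bodies and in ovaries. Those given in this section are only the ones among genes named by the rule whose libraries did not overlap in either tissue. For these, every female body library lay above the male ones while every ovary library lay below the testis libraries, or the reverse. The difference between bodies and gonads was not tested, as they were scaled and fitted separately. The arrestin gene Arr1 had a log2 fold change, female over male, of 2.42 in bodies and, ovary over testis, of -7.64 in gonads, with 0.179 and 0 CPM in ovaries, against 16.2 and 20.7 CPM in testes. The photoreceptor adhesion gene chp had 2.48 in bodies and -6.37 in gonads, with 0.357 and 0.374 CPM in ovaries, against 28.3 and 33.9 CPM in testes. The opsin gene Rh4 had 2.47 and -5.13, with 0.626 and 0.15 CPM in ovaries, against 14.3 and 12.7 CPM in testes. PPO2, a phenoloxidase of crystal cells, had 1.81 and -1.89, with 1.52 and 2.24 CPM in ovaries, against 4.82 and 9.18 CPM in testes.

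In the other direction, Adh had -2.08 in bodies and 2.55 in gonads, with 168 and 255 CPM in ovaries, against 32.5 and 39.7 CPM in testes. Adhr, which shares the coordinates of Adh and nearly all of its counts, had -2.08 and 2.55 as well, and does not count as a further gene.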

How the results depend on the processing

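The count of genes higher in female bodies, 1661, depended on the processing more than that of genes higher in male bodies, 3020. With plain library totals 1094 genes were higher in females and 3055 in males, and against a 2-fold change 879 and 2606. Leaving out 1 library gave 947 to 1525 genes higher in females and 2475 to 2771 higher in males; the lowest counts for females were 963 without female replicate 1, 947 without male replicate 1 and 1010 without male replicate 2. These fits tested a lone library in 1 group, which was assumed to vary like the others. DESeq2 called 1623 and 3452 genes. In gonads, the test against a 2-fold change called 2152 genes higher in ovaries, against 3412, and plain library totals moved the share of ovary-biased calls to 44.6%, against 35.4%. X genes stood 0.339 above those of chromosomes 2 and 3 without a filter on low counts, and 0.352 to 0.413 with 1 library left out, against 0.398. Of 554 listed or named genes, 0 changed direction between calls under any alternative, and 0 to 58 lost their call. The comparison with added Y gave 0 calls throughout, with 368 to 934 unadjusted p-values below 0.05 when 1 control library was left out.

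Replicate numbers are shared between groups, and deviations of same-numbered XX and XY libraries correlated with r = 0.167 over 2 numbers. Between other body groups, r lay between -0.536 (XX females with XYYcongo males) and 0.545 (XY males with XYYohio males). Whether same-numbered libraries share more than a number cannot be told from 2 numbers, and they were not paired. With the number as a replicate block, 1555 genes were higher in females and 2941 in males. With 2 libraries per sex, a gene that was not called is not shown to be equal in both sexes, and genes with few counts can show only large differences.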

Other observations

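Of the 14 genes higher in male bodies and in ovaries, 4 are given here as single genes, chosen after their values were seen; no list of their pathways was fixed, and how many other genes of those pathways share the pattern was not counted. Pfas, an enzyme of purine synthesis, averaged 112.8 CPM in female bodies and 511 CPM in male bodies, and 173 CPM in ovaries and 62.3 CPM in testes. Its log2 fold change was -2.18 in bodies (edgeR adjusted p = 0.0129) and 1.48 in gonads (edgeR adjusted p = 0.000276). Gart, which also acts in purine synthesis, averaged 42.5 CPM in female bodies and 173 CPM in male bodies, and 59.3 CPM in ovaries and 23.9 CPM in testes. Paics, another enzyme of purine synthesis, averaged 81.9 CPM in female bodies and 241 CPM in male bodies. Shmt, which supplies one-carbon units, averaged 39.1 CPM in female bodies and 127 CPM in male bodies. The difference between bodies and gonads was not tested.

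Of the 7 lysozyme genes in the digestive list, looked at after their values were seen, 6 were tested in bodies, and LysB, LysC, LysD and LysP were higher in females while LysE and LysX were not called. LysB, LysC, LysD and LysE were higher in testes than in ovaries, and LysP and LysX were not tested in gonads. LysD averaged 149 CPM in female bodies and 33.7 CPM in male bodies (edgeR adjusted p = 0.0396), with 0.187 CPM in ovaries and 54.0 CPM in testes. LysE had 10.95 and 21.8 CPM in female bodies, against 11.1 and 15.3 CPM in male bodies (edgeR adjusted p = 0.661), with 0 and 0.15 CPM in ovaries, against 90.9 and 176 CPM in testes. LysB, LysC, LysD and LysE are close copies of each other, so their single counts are uncertain.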
